A study of Sus scrofa with 4 samples.

Results

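Genes of vesicle traffic were measured in pig embryos that had reached the blastocyst stage with or without ethanol. They were chosen by gene symbol: the Rab GTPases and the regulators that carry their name, syntaxins (STX), syntaxin binding proteins (STXBP), VAMP and SNAP proteins, the VPS genes first named in yeast vacuolar protein sorting, sorting nexins (SNX), the COPI and COPII coats and the Sec61 channel. The array carried 257 probes for 143 such genes, among 43794 probes in all and 11060 genes with a usable symbol. Of the 143 genes, 118 had a probe that stood above background on enough arrays to be tested, and 25 did not.

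Porcine zygotes were cultured for 7 days in PZM3, a medium for pig embryos, and expanded blastocysts were collected. Ethanol embryos received 0.2% ethanol and control embryos no added compound. The labels describe culture in sealed glass vials and give no genotype. Each of 4 two-colour arrays set RNA from 1 pool of 10 ethanol blastocysts against RNA from 1 pool of 10 control blastocysts, with ethanol RNA in Cy5 on arrays 1 and 3 and in Cy3 on arrays 2 and 4. The comparison asks which transcripts differ in embryos that reached this stage in ethanol.

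Membrane traffic moves proteins and lipids between compartments in coated vesicles. Coats bud the vesicle, Rab GTPases in their active form recruit motors and tethers that bring it to its target, and SNAREs on both membranes zipper together to fuse them, helped by Sec1/Munc18 (SM) proteins. In a blastocyst the outer trophectoderm is a polarised epithelium, and such cells sort cargo to separate apical and basolateral surfaces through recycling endosomes.

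All values are log2 ratios of ethanol over control. The fitted value comes from a limma model with a term for ethanol and a term for the dye, and its standard error (SE) rests on the spread between the 4 pairs of pools, moderated by that of the other probes. The pools are the replicates. The labels do not say whether they came from separate cultures, so the errors measure only the spread between these samples. Dye shaped the single arrays: over all kept probes the ratio of ethanol over control correlated at 0.40 between arrays 1 and 3 and at 0.44 between arrays 2 and 4, which share an orientation, and at -0.39 to -0.29 between arrays of opposite orientation. Array values are given in the order of arrays 1 to 4, before the dye term unless stated otherwise. Above background were 45.3% to 57.3% of probes in Cy5 and 70.4% to 73.5% in Cy3.

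Of 11 listed trophectoderm markers 10 were measured, and all 10 were above background in every pool, among them KRT8, KRT18, GATA3 and CDX2. Their median log2 ratio was -0.16, with 7 of 10 below 0. At an unadjusted p under 0.05 were 3 of the 10 (30%), against 9.01% of all named genes. All 3 were lower, against 4.18% of all named genes in that direction: PPAG3 at -0.38, TEAD4 at -0.29 and GATA2 at -0.18. The 3 trophectoderm markers above 0 were CDX2 at 0.08, KRT18 at 0.05 and ELF3 at 0.04. Of 6 hypoblast markers 4 were measured, 3 above 0, with a median of 0.16 and COL4A1 highest at 0.27. GATA6, the brightest of the 4, was at -0.05. PDGFRA, at 0.09, was above background on 3 arrays in ethanol RNA and 2 in control RNA. It was thus kept through ethanol RNA alone, which favours a higher value. Of 7 inner cell mass markers 3 were measured (POU5F1, DPPA5 and ESRRB, median -0.26), and NANOG and SOX2 were not among them. All 3 were below 0, and 1 of the 3 (33.3%) was at an unadjusted p under 0.05, ESRRB at -0.26. Of 9 cumulus and granulosa markers 7 were measured, 3 of them above background in every pool, with a median of 0.03 and a summed intensity of 880 to 923 units in ethanol pools and 839 to 913 in control pools. The trophectoderm sum was 81501 to 187293 in ethanol pools and 99208 to 172695 in control pools. KRT18 and KRT8 were its brightest genes, at mean log2 intensities of 15.6 and 15.4, with dye coefficients of 1.22 and 1.02. In ethanol pools KRT18 had 16.3, 15.3, 16.2 and 14.8 on arrays 1 to 4. The range of this sum therefore carries the dye orientation. The part of these markers in the results below was not tested. In pools of whole embryos, fewer cells of a type and less RNA per cell cannot be told apart.

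The traffic genes as a whole lay close to 0. No member passed limma's adjustment for multiple testing over all kept probes, against 0% of the 25899 probes, and the smallest adjusted p among the members was 0.514, shared by STXBP2 and COPZ2. At an unadjusted p under 0.05 were 7 of 118 genes (5.93%), against a background of 9.01% of all 7344 named genes. In the higher direction there were 3 (background 4.83%) and in the lower direction 4 (background 4.18%). The median log2 ratio over the members was -0.0035, with 58 genes above 0 and 60 below, and that over all named genes was -0.001.

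**Figure D1:**
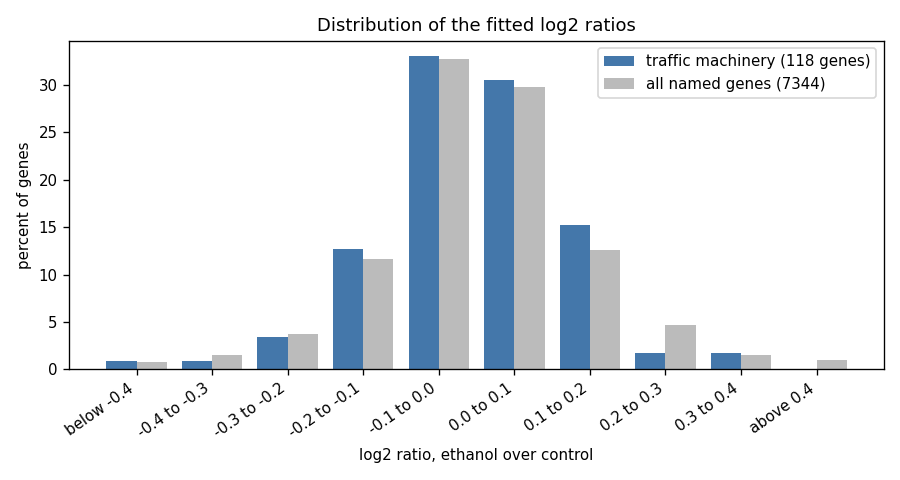
Percent of genes (vertical axis) in bins of the fitted log2 ratio of ethanol over control (horizontal axis), for the 118 measured traffic genes and all 7344 named genes. The bars of both sets have similar heights, and the bin above 0.4 holds 0 traffic genes and 0.994% of all genes.

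The spread between traffic genes differed little from that of all genes. Their median absolute log2 ratio was 0.081, against 0.072 for all named genes, and fewer lay in the tails. Of the 118 genes, 108 (91.5%) lay within 0.2 of 0 on the log2 scale, against 86.8% of all named genes, and 4 (3.39%) lay beyond 0.3, against 4.78%. On each gene's brightest kept probe, the 95% interval of the fit stayed inside a 1.5-fold difference in either direction for 115 members (97.5%). The share over all named genes was 94.6%. The 3 members whose intervals reached further were STXBP2, STXBP6 and RAB38. On single arrays, with each gene's dye coefficient removed, 31 of the 118 (26.3%) kept one sign on all 4, against a background of 24.6%.

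**Figure D2:**
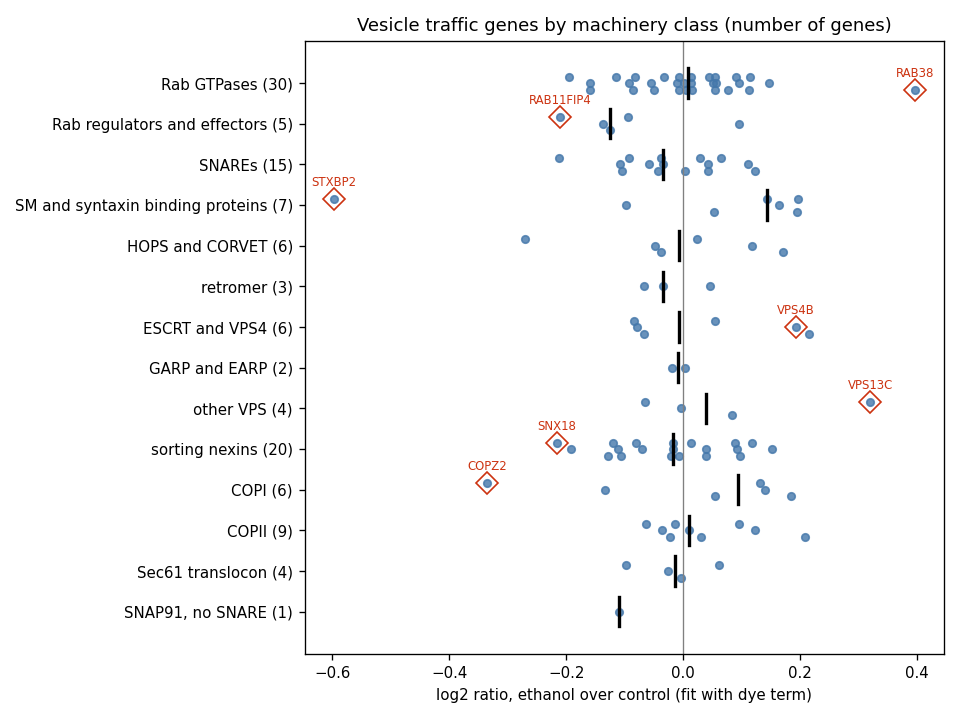
Fitted log2 ratio (horizontal axis) of each of the 118 measured genes by machinery class, with the number of genes in brackets and a black bar at the class median. Diamonds mark the 7 genes at an unadjusted p under 0.05, from STXBP2 at -0.60 to RAB38 at 0.40.

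STXBP2 gave the largest difference of any member. It encodes Munc18-2, the SM protein of epithelial and blood cells that chaperones syntaxins, and in humans its loss causes a failure of granule release in killer lymphocytes. Its single probe, EMPV1_42672, had normalised log2 intensities of 8.76, 7.93, 8.27 and 7.88 in the ethanol pools and 8.96, 8.93, 8.73 and 8.61 in the control pools. The ethanol value was below the control value on every array, although ethanol pool 1 was brighter than the dimmest control pool. The log2 ratios were -0.20, -0.999, -0.46 and -0.73, larger on both arrays with ethanol in Cy3. The fitted value was -0.60 (SE 0.09, 95% interval -0.81 to -0.38, n = 4), a 1.51-fold difference.

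The syntaxins and SNAP that Munc18-2 is known to work with had values nearer to 0 or no usable signal. STX3, an apical plasma membrane syntaxin, had log2 ratios of -0.50, 0.18, -0.32 and 0.22 and a fitted value of -0.11 (SE 0.07). SNAP23, the SNAP-25 relative of cells other than neurons, had 0.07 (SE 0.08). STX11, the partner in lymphocytes, was above background on 0 arrays. Differences between STXBP2 and these genes were not tested.

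Among the other syntaxin binding and SM proteins, 5 of the 6 lay above 0, which put the class median at 0.14 over 7 genes. Without array 1 that median was -0.04. Among those 5, STXBP4 at 0.05 was above background on 4 arrays in ethanol RNA and 2 in control RNA. STXBP4 was thus kept through ethanol RNA alone, which favours a higher value. STXBP5 (tomosyn), which holds syntaxins in inactive complexes, had -0.20, 0.65, -0.08 and 0.41 and a fitted value of 0.19 (SE 0.08), while its second kept probe lay at -0.04. VPS33A, the SM subunit of the lysosomal tethers, was the most even of the class across arrays with 0.13, 0.15, 0.14 and 0.16 and a fitted value of 0.14 (SE 0.07). VPS45, which acts with endosomal and Golgi syntaxins, had 0.16 (SE 0.15), and STXBP3, or Munc18-3, which binds STX4, had -0.10 (SE 0.07). STXBP6 (amisyn), singled out after its values were seen, rested on 1 array: its log2 ratios were 1.21, -0.20, -0.14 and -0.08, and its fitted value of 0.20 (SE 0.21) became -0.14 without array 1.

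The SNARE class was set by symbol and took in SEC22A and SEC22C. Its 15 measured genes lay between -0.21 and 0.12, with 7 above 0, 8 below and a median of -0.03. Of the 15, 0 were at an unadjusted p under 0.05, against the background of 9.01%. STX17, the syntaxin that autophagosomes take up before they fuse with lysosomes, had log2 ratios of -0.15, -0.02, -0.58 and -0.10. These were below 0 on all 4 arrays, with array 3 lowest, and the fitted value was -0.21 (SE 0.09), or -0.11 without array 3. At the other end VAMP4, a SNARE of the trans-Golgi network, had 0.12 (SE 0.11), with 0.62 on array 4 and values from -0.13 to 0.01 on the rest. STX4, the basolateral plasma membrane syntaxin, had -0.11 (SE 0.11), and its 3 kept probes all lay below 0, at -0.19 to -0.06. The Golgi and endosome syntaxins STX6, STX10 and STX16 had 0.04, 0.04 and 0.11. SEC22A, placed in the class by its symbol, had -0.03.

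The 30 measured Rab GTPases had a median log2 ratio of 0.01, with 17 above 0 and 13 below. Of the 30, 1 (3.33%) was at an unadjusted p under 0.05, RAB38, against the background of 9.01%. RAB38 acts in the biogenesis of melanosomes and other lysosome-related organelles. It had log2 ratios of 0.50, 0.18, 0.16 and 0.75, above 0 on every array and highest on arrays 1 and 4, and a fitted value of 0.40 (SE 0.12, 95% interval 0.10 to 0.69), or 0.25 without array 4. Its normalised log2 intensities were 7.81, 7.70, 7.97 and 8.81 in ethanol pools and 7.31, 7.52, 7.81 and 8.06 in control pools, so the groups overlapped while each array ran the same way. RAB32, its closest relative in function, had -0.06, 0.13, -0.20 and 0.51 and a fitted value of 0.09 (SE 0.09). RAB32 was dim, above background on 2 arrays in ethanol RNA and 3 in control RNA.

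Rabs of recycling had values on both sides of 0. RAB17, found in epithelia and known for apical recycling, had log2 ratios of -0.13, -0.40, -0.18 and -0.07 and a fitted value of -0.20 (SE 0.08). RAB25, the epithelial member of the Rab11 group, had -0.03, -0.54, 0.03 and -0.09 and a fitted value of -0.16 (SE 0.10). RAB11A, the general recycling Rab, had -0.08 (SE 0.07) on the brighter of its probes and 0.01 on the dimmer. RAB4B, of fast recycling from early endosomes, had -0.03, 0.18, -0.12 and 0.42 and a fitted value of 0.11 (SE 0.08). None of these 4 was at an unadjusted p under 0.05, and RAB17 was at -0.11 without array 2. The trophectoderm markers given above had a median of -0.16 in the same pools, and their part in these values was not tested.

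Rabs of other routes had values on both sides of 0 within each route. For the early secretory pathway, RAB1A and RAB1B had 0.09 (SE 0.08) and -0.09 (SE 0.07), RAB2A 0.11 (SE 0.12) and RAB6B 0.04 (SE 0.15). For endosomes and lysosomes, RAB5C had 0.00 (SE 0.13), RAB7A 0.05 (SE 0.10), RAB9A -0.09 (SE 0.08), RAB21 -0.05 (SE 0.10) and RAB22A 0.08 (SE 0.11) on its brighter probe and -0.14 on the dimmer. For export to the surface, RAB8A had -0.03 (SE 0.12) and RAB8B 0.15 (SE 0.08), RAB10 -0.01 (SE 0.09), RAB14 0.01 (SE 0.09) and RAB27A -0.16 (SE 0.11). Of these, RAB8B was the only one with one sign on all 4 arrays before the dye term, at 0.08, 0.12, 0.37 and 0.02. On the brightest probe of each of these 14 genes, the 95% interval stayed inside a 1.5-fold difference. A slightly dimmer RAB10 probe had -0.42 with an interval of -0.92 to 0.07, which reached past it.

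Rab regulators and effectors had the lowest class median, -0.13 over 5 genes, with 4 below 0. Taken as the mean of each gene's probes it was -0.04. RAB11FIP4, an effector that binds Rab11 on recycling endosomes, lay below 0 on all its kept probes. Its brightest probe had log2 ratios of -0.16, -0.21, -0.20 and -0.27 and a fitted value of -0.21 (SE 0.07). The 4 further kept probes of RAB11FIP4 had -0.17, -0.12, -0.14 and -0.14, which makes 5 of 5 below 0. RAB11FIP1, another Rab11 effector, had -0.09 (SE 0.07) and 0.04 on its 2 probes.

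Both subunits of the Rab3 GTPase-activating complex were measured, and the difference between them was not tested. RAB3GAP2, the noncatalytic one, had -0.04, -0.33, 0.08 and -0.26 and a fitted value of -0.14 (SE 0.07), and the catalytic RAB3GAP1 had 0.10 (SE 0.08) on its brighter probe and 0.00 on the dimmer. RAB3IP (Rabin8), the exchange factor that activates Rab8, had -0.13 (SE 0.09), with its 3 kept probes at -0.13, -0.09 and 0.09.

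**Figure D3:**
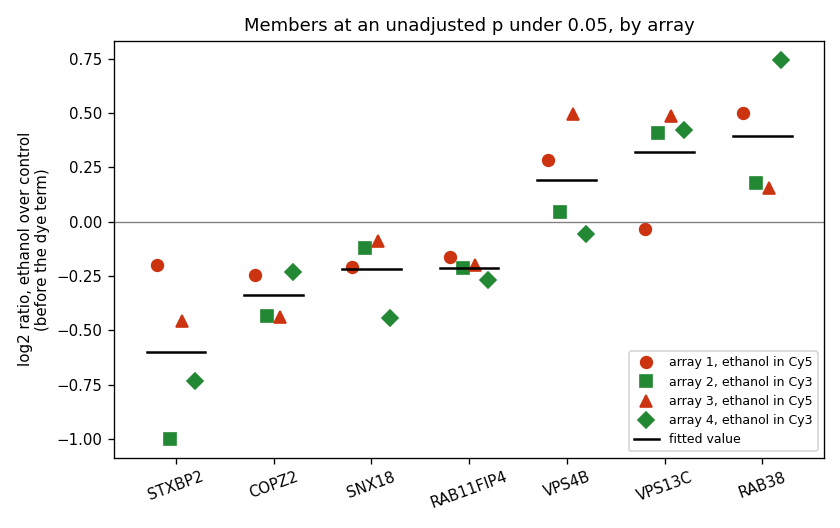
Log2 ratio of ethanol over control on each array before the dye term (vertical axis) for the 7 members at an unadjusted p under 0.05, with the fitted value as a bar; red marks arrays with ethanol RNA in Cy5 and green those with it in Cy3. STXBP2, COPZ2, SNX18, RAB11FIP4 and RAB38 kept one sign on all 4 arrays, while VPS4B was below 0 on array 4 and VPS13C on array 1.

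VPS proteins of the lysosomal tethers HOPS and CORVET, which capture late and early endosomes, pointed both ways: 3 of the 6 were above 0 and 3 below, with a median of -0.01. With each gene's probes averaged the median was 0.08. VPS11, a core subunit of both, had log2 ratios of 0.09, -0.35, -0.54 and -0.29 and a fitted value of -0.27 (SE 0.12), or -0.11 without array 3. Its 3 kept probes had -0.27, -0.15 and -0.02. VPS41, the HOPS subunit that contacts late endosomes, had 0.12 (SE 0.07), 0.20 and 0.17 on its 3 kept probes, and was singled out after those values were seen because all lay above 0. VPS18, another core subunit, had -0.24, 0.30, 0.31 and 0.30 and a fitted value of 0.17 (SE 0.10), with array 1 alone below 0. Without array 3 VPS18 was at 0.03.

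Retromer, which retrieves receptors from endosomes to the Golgi, had fitted values near 0. VPS26A was at 0.04 (SE 0.08), VPS26B at -0.07 (SE 0.09) and VPS29 at -0.04 (SE 0.10), the only 3 retromer genes on the array. With the dye coefficient removed, the retromer median on arrays 1 to 4 was -0.11, -0.22, 0.12 and 0.15, so the arrays disagreed. VPS52 and VPS54 of the GARP tether at the Golgi were also near 0, at -0.02 (SE 0.07) and 0.00 (SE 0.07). In the ESCRT group, whose complexes sort ubiquitinated cargo into multivesicular bodies, VPS4B was at an unadjusted p under 0.05. VPS4B is one of a pair of ATPases that take ESCRT-III filaments apart. It had log2 ratios of 0.29, 0.04, 0.50 and -0.06, higher on the arrays with ethanol in Cy5, and a fitted value of 0.19 (SE 0.08). Its paralog VPS4A had 0.05 (SE 0.10). VPS36, which binds ubiquitin in ESCRT-II, had 0.37, 0.14, -0.20 and 0.54 and a fitted value of 0.22 (SE 0.12), or 0.07 without array 1. That fitted value was the highest of its 4 kept probes, which reached down to -0.02 and had a mean of 0.08.

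VPS13C, a bridge-like protein that carries lipids between the ER and late endosomes or lipid droplets, had log2 ratios of -0.04, 0.41, 0.49 and 0.42. Array 1 stood apart from the other three. The fitted value was 0.32 (SE 0.10, 95% interval 0.07 to 0.57), which became 0.19 without array 3 and 0.45 without array 1. Its relatives VPS13A and VPS13B had -0.00 (SE 0.07) and -0.07 (SE 0.07). Both were dim, at mean log2 intensities of 6.89 and 6.88 against 8.62 for VPS13C. VPS13B was above background on 2 arrays in ethanol RNA and 3 in control RNA. VPS72, taken by its symbol but known as a subunit of chromatin remodelling complexes, had 0.08 (SE 0.08).

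Sorting nexins bind phosphoinositides of endosomes, and several bend membranes into tubules. Their 20 measured genes ranged from -0.22 to 0.15 around a median of -0.02, and 12 of them were below 0. SNX18, a BAR-domain nexin of endocytosis and autophagosome formation, had log2 ratios of -0.21, -0.12, -0.09 and -0.44, below 0 on every array and lowest on array 4. Its fitted value was -0.22 (SE 0.08), or -0.14 without array 4, and its other kept probe lay at -0.12. SNX33, from the same subfamily, had -0.19 (SE 0.12) and was above background in ethanol RNA on 1 array only. It was kept through control RNA, above background on 3 arrays, which favours a lower value. The retromer-linked nexins SNX1, SNX3 and SNX6 had -0.02 (SE 0.08), 0.04 (SE 0.07) and 0.04 (SE 0.08). At the upper end SNX19 had -0.09, 0.63, -0.32 and 0.38 and a fitted value of 0.15 (SE 0.08), an array pattern that followed the dye.

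The COPI coat, which returns vesicles from the Golgi to the ER, had 4 of its 6 measured subunits above 0 and a median of 0.09, or 0.03 with each gene's probes averaged and 0.02 without array 1 or array 2. COPZ2, one of a pair of zeta subunits, lay below. It had log2 ratios of -0.24, -0.43, -0.44 and -0.23 and a fitted value of -0.34 (SE 0.08, 95% interval -0.53 to -0.14), a 1.26-fold difference. Its dye coefficient was close to 0. In normalised log2 intensity the ethanol pools had 9.78, 9.01, 9.88 and 9.12 and the control pools 10.0, 9.45, 10.3 and 9.35. The other zeta subunit, COPZ1, had 0.13 (SE 0.11), with values down to -0.14 on its 3 dimmer probes. The beta subunits COPB2 and COPB1 had 0.18 (SE 0.08) and 0.14 (SE 0.07). COPB2 lay at 0.07 with its probes averaged, and COPB1, singled out after its values were seen, had one of 4 kept probes below 0. COPA had 0.05 (SE 0.10) and COPG2 -0.13 (SE 0.13). Differences between COPI subunits were not tested.

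COPII, the coat for export from the ER, had 9 measured genes from -0.06 to 0.21 with a median of 0.01. The inner coat and cage genes SEC23A, SEC24A, SEC24B, SEC13 and SEC31A lay between -0.06 and 0.03. All of these but SEC31A were dim, at mean log2 intensities of 6.78 to 7.32, against 12.5 for SEC31A. The brighter SEC23B, SEC24C and SEC23IP, at intensities of 8.41 to 9.73, had 0.10 to 0.21 on their brightest probes. SEC23B had 0.10 (SE 0.07). SEC23IP, a partner of Sec23 at ER exit sites, had 0.57, 0.22, 0.35 and -0.32 and a fitted value of 0.21 (SE 0.11), or 0.07 without array 2. The brighter SEC24C probe had 0.12 (SE 0.07) and the dimmer -0.28. The Sec61 channel, through which proteins enter the ER, had SEC61B at -0.10 (SE 0.07), SEC61G at -0.03 (SE 0.14), SEC61A2 at -0.00 (SE 0.07) and SEC61A1 at 0.06 (SE 0.09). The second SEC61A1 probe lay at -0.20. SNAP91, which shares the SNAP name but encodes a clathrin assembly protein, had -0.11 (SE 0.07), with a dye coefficient of -0.52.

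**Figure D4:**
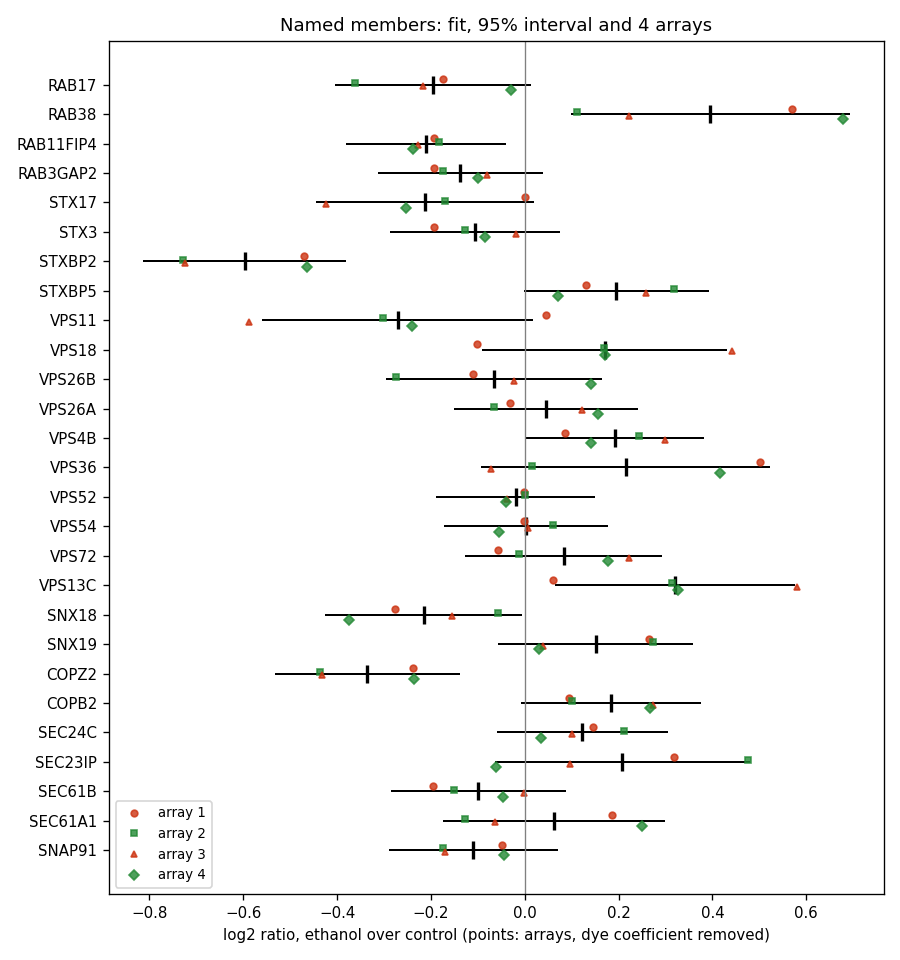
Fitted log2 ratio (vertical tick) with its 95% interval (line) for the 27 members named by rule, the 7 at an unadjusted p under 0.05 and those of smallest p in each class, and the 4 arrays as points after removal of the dye coefficient; red marks arrays with ethanol RNA in Cy5 and green those with it in Cy3. The intervals of STXBP2, COPZ2, RAB38, VPS13C, RAB11FIP4, SNX18 and VPS4B do not cross 0.

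Probes of one gene gave a second measure of error. Among the 42 members with over 1 kept probe, the probes had one direction in 20 (47.6%), against 52.9% of all 2055 such genes, and the median distance between a gene's lowest and highest probe was 0.13 on the log2 scale, against 0.11. That distance is of the size of most fitted values above. It was widest for RAB10, a Rab of Golgi export and lumen formation, with 5 of 6 probes at -0.01 to 0.12 and 1 at -0.42 (SE 0.20). RAB13, a Rab of tight junction assembly, had -0.01 on its brightest probe and -0.46 (SE 0.14) and -0.21 on the others, and was singled out after its values were seen. Over all 187 kept probes of the members, 12 (6.42%) were at an unadjusted p under 0.05, against 7.27% of all kept probes. Of the 18 genes with at least 3 kept probes, RAB11FIP4, RAB13, VPS11, VPS41, STX4 and SNAP91 had all of them on one side of 0. The share over all named genes with at least 3 kept probes was not counted, so this list is description only.

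**Figure D5:**
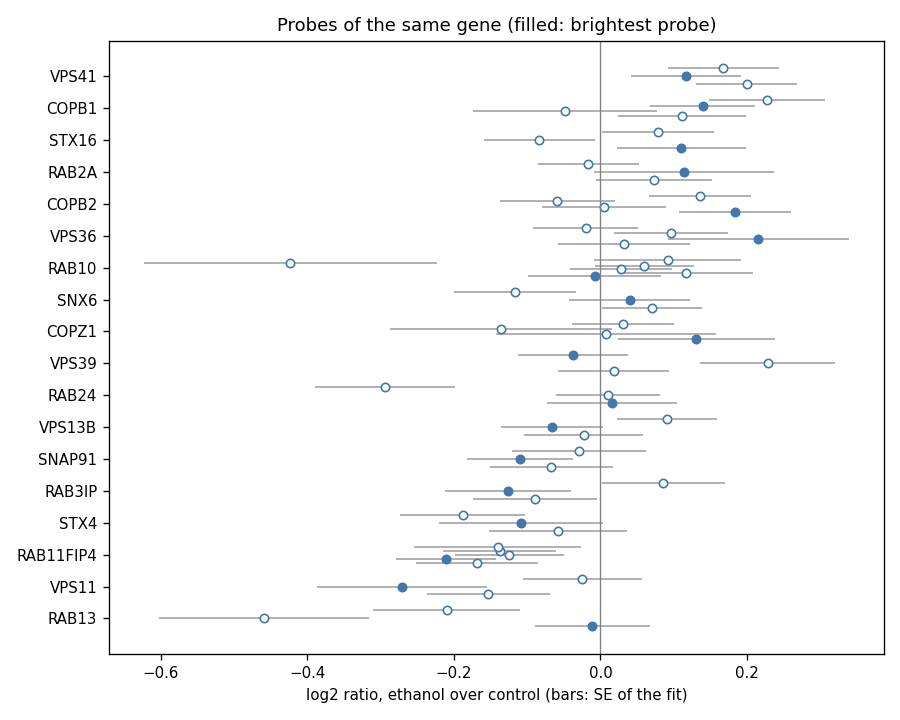
Fitted log2 ratio of every kept probe (horizontal axis, bars are the SE of the fit) for the 18 members with at least 3 kept probes; the filled point is the brightest probe, on which the gene's value rests. All 5 RAB11FIP4 probes lie below 0 and all 3 VPS41 probes above, while the RAB10 probes span 0.54.

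The 25 members without a usable probe were 12 Rab GTPases, 3 Rab regulators, 4 SNAREs and 6 others. Among them were all 4 Rab3 genes on the array, RAB3A, RAB3B, RAB3C and RAB3D, known from regulated secretion, and VAMP1 and VAMP2, the synaptobrevins of synaptic vesicles. For 8 of the 25, including RAB19, RAB30 and STX11, no probe was above background on any array in either RNA. Low signal in this platform does not show that a transcript is absent. No member was saturated.

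Traffic genes outside the symbol rule were counted as a further list. The array held 92 of them and 88 were measured, at a median of -0.01, of which 47 were below 0. None passed limma's adjustment, and 8 were at an unadjusted p under 0.05 (9.09%), 5 higher and 3 lower, a share near the background of 9.01%. TRAPPC5, a subunit of the TRAPP tether, had log2 ratios of -0.83, -0.38, -1.11 and 0.02 and a fitted value of -0.58 (SE 0.10). KDELR3, which retrieves ER proteins that escape to the Golgi, had 0.71, 0.14, 0.79 and 0.15 and a fitted value of 0.45 (SE 0.07). Both were larger in size on arrays with ethanol in Cy5, and LMAN1, the ER exit receptor for glycoproteins, was above 0 on all 4 arrays with 0.63, 0.18, 0.12 and 0.52 and a fitted value of 0.36 (SE 0.11), or 0.24 without array 1.

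In SNARE recycling, NSF, the ATPase that takes used SNARE complexes apart, had log2 ratios of 0.45, 0.34, 0.07 and 0.27, above 0 on every array, and a fitted value of 0.28 (SE 0.09). YKT6, a SNARE of another name, had -0.41, -0.28, -0.33 and 0.05 and a fitted value of -0.24 (SE 0.08). USO1, the tether p115 that receives ER vesicles at the Golgi, had 0.22 (SE 0.07), and AP3M1 of the AP-3 adaptor had 0.24 (SE 0.07) beside AP3D1 at -0.17 (SE 0.08). ARCN1, the delta subunit of COPI under another name, had 0.22 (SE 0.12), or 0.08 without array 2, and TFG of ER exit sites had 0.20 (SE 0.10), or 0.09 without array 1. In the remaining lists ARF5 and ARF3 had -0.22 (SE 0.09) and -0.19 (SE 0.13), which became -0.11 without array 2 and -0.02 without array 3. EXOC1 and EXOC6 of the exocyst had 0.16 (SE 0.11) and -0.14 (SE 0.10), which became 0.04 without array 2 and -0.02 without array 3. EXOC6 was above background on 2 arrays in ethanol RNA and 3 in control RNA. It was thus kept through control RNA alone, a filter that favours a lower value. CHM and RABGGTA of Rab prenylation had 0.10 (SE 0.08), or 0.02 without array 2, and 0.09 (SE 0.07). The ESCRT-III genes CHMP4A and CHMP5 had -0.10 (SE 0.09) and -0.12 (SE 0.12), which became -0.02 without array 2 and 0.01 without array 4. No gene of the Rab prenylation, exocyst, ARF, coat or ESCRT lists was at an unadjusted p under 0.05, against the background of 9.01%, in lists of 4 to 8 genes. The other lists had 3 of 12 Golgi tethers (25%) and 2 of 13 genes of SNARE disassembly (15.4%). Cargo receptors had 2 of 16 (12.5%), and clathrin and adaptors 1 of 15 (6.67%). The Golgi tethers were TRAPPC5, USO1 and TRAPPC4, the last given as description at -0.19 (SE 0.07).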

How the data were processed

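RNA was linearly amplified before labelling, per the labels' protocols. Scanner files give the spot and local background intensity for Cy5 and Cy3 as deposited, before any normalization. The log2 ratios that the authors deposited for the series were made by a normalization not given in the sources used here. Set against the loess values, these columns correlated at 0.968 to 0.990 with slopes of 1.04 to 1.07, which places them on a log2 scale as Cy5 over Cy3 on every array, and their medians were -0.0138, -9.35e-05, 0.00378 and 0.00108. A table with 4 columns matching no single label was not used.

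Median pixel intensities were corrected with normexp (offset 50) and normalized within arrays by loess in limma 3.58.1 (R 4.3.3), with weight 0 for 1426 control spots and for 53 spots the scanner file marks as ignored, none a kept member. A probe was kept when above the 95th percentile of 153 negative controls on at least 3 arrays in either RNA (25899 probes). The model had ethanol and dye coefficients and 2 residual degrees of freedom, and p-values were adjusted by Benjamini-Hochberg across the kept probes at a threshold of 0.05. Each gene is represented by the brightest of its kept probes. Symbols are the array annotation's; all 143 occur in the Sscrofa11.1 RefSeq table. The fit alone, without background correction or normalization, was run on simulated ratios. Their noise was independent between probes and followed the fit's own variance model, so the run does not cover array effects.

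Members and lists were chosen with earlier results of these data known. Named by rule were members at an unadjusted p under 0.05, the 2 of smallest p in each class, and up to 2 of each of 9 further lists. Values of other members are given as description. Alternatives covered background, normalization, filter, dye term, variance model, separate channels, the authors' values, pixel summary, probe averaging and each array left out.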

Additional observations from a re-analysis of the deposited data

Results flagged for a closer look

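Ratios before the dye term were searched for an array far from the other three, over 152 values: the 118 members, further named genes and class medians. Chance marks about 1 in 20 groups of 4 values from a single normal distribution. Ratios before the dye term differ by orientation, so that rate does not apply to them as it stands. Of the 152 values, 6 were marked. On array 1, STXBP6 stood at 1.21 (others -0.20 to -0.08), SNX13 at 0.23 (others -0.25 to -0.21), STXBP4 at 0.31 (others -0.06 to 0.00), VPS13C at -0.035 (others 0.41 to 0.49) and VPS18 at -0.24 (others 0.30 to 0.31). On array 4, CHM stood at -0.15 (others 0.16 to 0.21).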

How the results depend on the processing

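The count of members past limma's adjusted threshold was 0 under all 15 alternatives, and at an unadjusted p under 0.05 there were 4 to 13 members. That count was 13 of 143 (9.09%) without the filter on dim probes, against 7.96% of all named genes at that setting, 4 of 118 (3.39%) without a dye coefficient, against 4.30%, and 5 to 10 with 1 array left out: 5 (4.24%) without array 3, against 9.10%, and 10 (8.47%) without array 4, against 10.6%. STXBP2 lay between -0.70 and -0.53 and COPZ2 between -0.39 and -0.29 in every alternative, with adjusted p from 0.219 (separate channels) upward for STXBP2. Class medians moved past their spread between arrays in 4 cases: with probes averaged, Rab regulators and effectors at -0.043 and HOPS and CORVET at 0.080, and with 1 array left out, SM and syntaxin binding proteins at -0.040 to 0.14 (lowest without array 1) and ESCRT and VPS4 at -0.038 to 0.072 (highest without array 4). Of 49 genes followed, 41 kept their direction under every alternative run. The exceptions with 1 array left out were VPS26A (-0.010 to 0.10), VPS26B (-0.17 to 0.038), VPS54 (-0.026 to 0.031), SEC61A1 (-0.033 to 0.16), CHMP5 (-0.25 to 0.0094), STXBP6 (-0.14 to 0.54, below 0 without array 1) and RAB13 (-0.072 to 0.049). With probes averaged SEC24C was at -0.080 and SEC61A1 at -0.069, with mean pixel signals VPS26A was at -0.0036 and RAB13 at 0.019, and with median centring RAB13 was at 0.0052. The cause of these changes was not tested. With 1 array left out, 1 residual degree of freedom remained. Cy5 detected fewer probes than Cy3, which limits the dim members.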
